A study of Mus musculus with 2 samples.

Results

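Resting conventional dendritic cells made up 351 of the 13151 barcodes of a single-cell RNA sequencing library of sorted liver cells, or 2.67%, and 3.43% of the 10220 barcodes that passed the depth limits. They were chosen from their own RNA. A barcode needed at least 500 genes, at least 1000 unique molecular identifiers (UMIs, counted molecules) on gene rows and under 20% mitochondrial UMIs. At least 1% of its UMIs had to come from the MHC class II genes H2-Aa, H2-Ab1, H2-Eb1 and Cd74, and at least 2 of the 6 markers Naaa, Plbd1, Irf8, Xcr1, Clec9a and Cd209a had to be detected. At most 1 of the 5 maturation genes Ccr7, Fscn1, Ccl22, Il4i1 and Il12b could be detected, with at most 1 UMI of the B cell genes Cd79a and Cd79b and at most 2 UMIs of the macrophage genes C1qa, C1qb and C1qc. Values of the 20 genes of this rule are given as description only, and no test is given between sets of cells chosen from the same values.

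The library came from 3 female BL6 mice, injected at 6 to 8 weeks of age and analysed on day 6 after hydrodynamic tail-vein (HDTV) injection, which forces plasmid DNA into a subset of hepatocytes. Of these, 2 mice received a transposon with NRAS(G12V) and mVenus and 1 received NRAS(G12V/D38A) and mVenus, in each case with a plasmid for the transposase, so the control carried the G12V allele as well. The transposon used the CAGGS promoter, which is not restricted to hepatocytes. Cells of each liver were labelled with a hashtag, sorted for mVenus, pooled and sequenced as 1 library with the labelled cell type "Hepatocytes", and 13141 barcodes were shared with the hashtag library. The cells had also been stained for viability and for the leukocyte antigen CD45, but no CD45 gate is stated, so what the sort did to the shares of dendritic cells was not tested.

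Conventional dendritic cells take up, process and present antigen to T cells. Type 1 cells, which depend on the transcription factors IRF8 and BATF3, carry XCR1 and the dead-cell receptor CLEC9A and are known for presenting internalized antigen on MHC class I to CD8 T cells. Type 2 cells depend more on IRF4, carry SIRPα and, in many tissues, CD209a, and are known for presenting antigen on MHC class II to CD4 T cells. On maturation, dendritic cells of either type switch on CCR7, the chemokine receptor that guides them to lymph nodes.

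The mouse of origin of each cell was read from a 15-base hashtag, and these sequences are shown because every value by mouse rests on them. The deposited table gives them, 5′ to 3′, as follows.
hashtag 1: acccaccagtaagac
hashtag 2: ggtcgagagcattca
hashtag 3: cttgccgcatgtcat
Sources differ on the pairing: hashtag 1 marks the D38A mouse in the deposited table, but hashtag 3 does so in the methods of the study, and the remaining tags mark G12V. The mice are therefore named by hashtag here, and construct and mouse cannot be told apart. The tags of the dendritic cells were clear, with a median of 232 tag UMIs per cell against 26 in all other barcodes. A single tag was called in 328 of the 351 cells (93.4%) and in 34.8% of the other barcodes, while 20 cells were called for more than 1 tag and 3 for none. Those 328 calls were 136 cells of hashtag 1, 184 of hashtag 2 and 8 of hashtag 3.

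The cells chosen by this rule were mostly of type 1. By the 3 marker genes Xcr1, Clec9a and Cd209a, 325 cells (92.6%, exact 95% binomial interval 89.3 to 95.1%) had Xcr1 or Clec9a without Cd209a and are called type 1. Another 16 cells (4.56%, 2.63 to 7.30%) had Cd209a without Xcr1 and Clec9a and are called type 2, 2 cells had both and 8 had neither. The rule bears on this split, since a cell with Cd209a as its only marker did not pass, and the markers Naaa and Irf8 were found in few type 2 cells. The type 1 cells numbered 125, 172 and 5 in hashtags 1, 2 and 3, and the type 2 cells 6, 8 and 2. All intervals here and below cover counting error only, not the spread between mice.

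The cells were deeply sequenced, with a median of 10245 UMIs (interquartile range 8478 to 12577) and 2240 genes, and summed to 3803008 UMIs. Most carried nearly the full marker set, since 272 cells had 5 of the 6 markers, 1 had all 6, and 40, 19 and 19 had 4, 3 and 2. Class II genes gave 1.13 to 10.1% of the UMIs of a cell, with a median of 6.03%. At the edges of the rule, the 19 cells with exactly 2 markers summed to 45.0 CPM of Xcr1 and Clec9a and 414 CPM of Cd209a. CPM is the number of UMIs of a gene per 1000000 summed UMIs of a set of cells. Just outside, 11 barcodes had 1 marker and 1 had none, and 10 barcodes had a class II share between 0.5 and 1%, against 9 between 1 and 1.5%. The border with maturation was crowded: 108 cells had 1 maturation gene, and 106 barcodes just outside had 2, with 592 and 518 CPM of Xcr1 and Clec9a and 70.0 and 475 CPM of Ccr7.

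The type 1 markers stood far above the rest of the library. Xcr1 (9: 123852315 to 123862029, minus strand, GRCm38), the receptor for the chemokine XCL1, was at 353 CPM (exact 95% Poisson interval 335 to 373) against 5.22 CPM in the 9869 other barcodes. It was at 321, 390 and 240 CPM in the cells of hashtags 1, 2 and 3. Clec9a (6: 129408862 to 129424763, plus strand), which binds actin exposed by dead cells, was at 328 CPM (310 to 346) against 7.03 CPM, and at 309, 359 and 336 CPM by hashtag. Naaa, a lysosomal amidase gene, was at 765 CPM (737 to 793) against 8.49 CPM, and at 784, 774 and 689 CPM by hashtag. Irf8 was at 1484 CPM against 53.5 CPM. The intervals of all 3 mice overlapped for Clec9a and Naaa, while for Xcr1 those of hashtag 1 (293 to 350) and hashtag 2 (362 to 419) did not. This changed when cells with over 1% of their UMIs from 8 listed hepatocyte genes were left out. The Xcr1 intervals of hashtags 1 and 2 then overlapped (338 to 408 and 374 to 435 CPM). Those of Naaa then did not (856 to 965 and 766 to 853 CPM).

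Genes of the type 1 programme that the rule did not use followed the same pattern. Across 7649 genes compared, outside the rule and with at least 10 CPM in 1 of the sets, 17.2% were at least 2-fold higher in the dendritic cells than in all other barcodes and 26.3% at least 2-fold lower, on the log2(CPM + 1) scale. That is 1315 genes higher and 2009 lower, and 1602 and 1619 when ratios were centred on their median. Of the 15 listed type 1 genes, 15 were at least 2-fold higher, with a median of 19.5-fold against 0.85-fold for all genes compared. Batf3, the type 1 lineage factor, was at 193 CPM (179 to 207) against 8.15 CPM, 23.7-fold higher, and at 202, 197 and 224 CPM in hashtags 1, 2 and 3. Wdfy4, needed for presenting cell-bound antigen to CD8 T cells, was at 259 CPM against 6.94 CPM. Ppt1, a lysosomal thioesterase gene, was at 880 CPM against 57.1 CPM, and Rab7b, for a small GTPase of late endosomes, at 248 CPM against 4.06 CPM. Itgae, which encodes CD103, was at 130 CPM against 2.94 CPM. The endosomal receptors for double-stranded RNA and for profilin, Tlr3 and Tlr11, were at 67.6 and 37.1 CPM against 3.88 and 0.49 CPM.

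**Figure D1:**
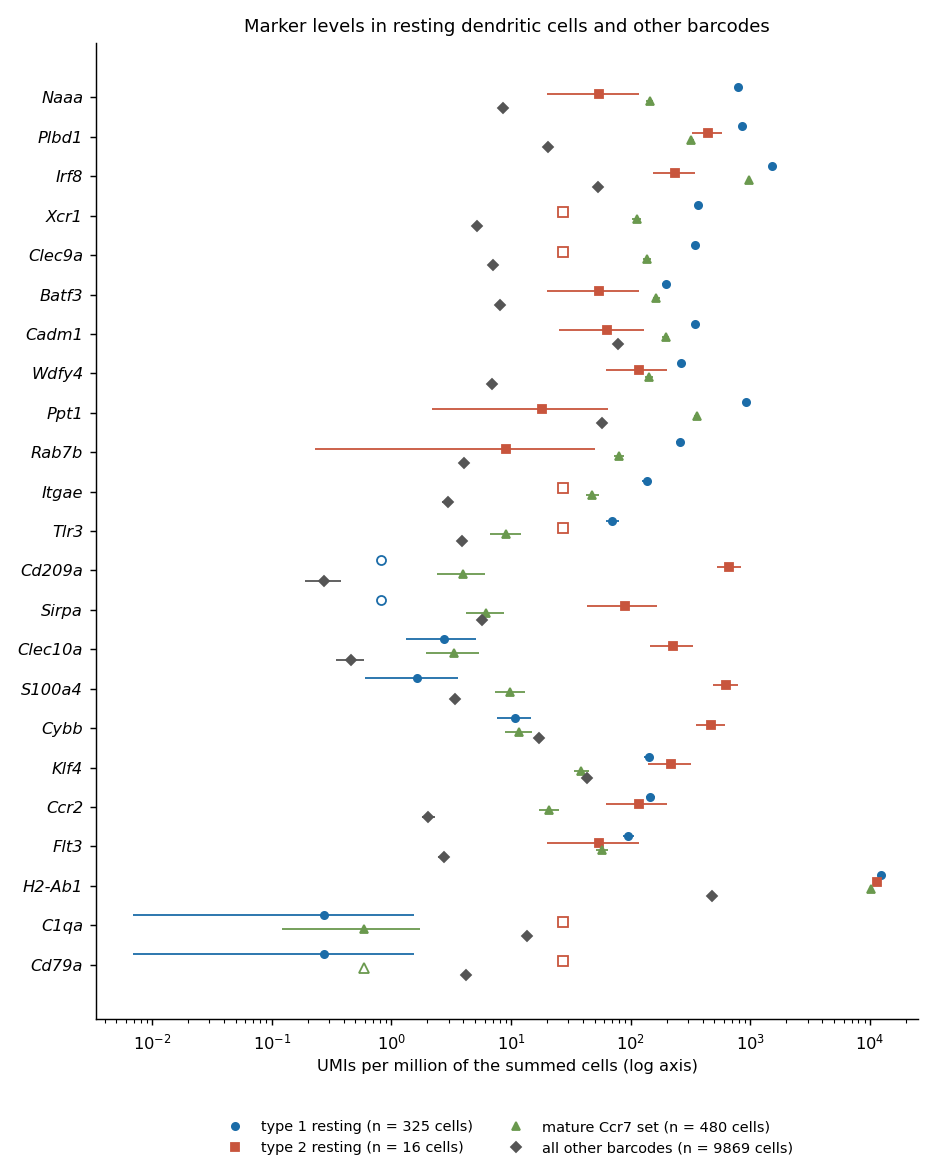
Levels of 23 marker genes (CPM, log axis) in 325 type 1 and 16 type 2 resting dendritic cells, 480 mature dendritic cells and 9869 other barcodes. Bars are exact 95% Poisson intervals, and open symbols mark genes at 0 UMIs, drawn at the level of 3 counts. Type 1 genes from Xcr1 to Tlr3 sit highest in the type 1 cells, Cd209a to Cybb in the type 2 cells, and H2-Ab1 is alike in both types. Xcr1, Clec9a and Cd209a made the split, so their 0 UMIs in the opposite type are fixed by it.

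The 15 genes with the highest ratio to all other barcodes, among those at 50 CPM or more and found in 20% or more of the cells, went beyond the type 1 list. Rnase6, an antimicrobial ribonuclease gene, was at 314 CPM against 4.42 CPM, 71.0-fold higher (64.2 to 78.7). Ccr2, the receptor for CCL2 on cells that enter tissue from blood, was at 145 CPM against 2.03 CPM, and at 147, 148 and 128 CPM in hashtags 1, 2 and 3. Havcr2, which encodes TIM-3, was at 110 CPM against 1.56 CPM, and Alox5ap, for a protein of leukotriene synthesis, at 424 CPM against 7.72 CPM. Tifab was at 94.1 CPM against 0.96 CPM. March1, for a ubiquitin ligase that removes class II and CD86 from the surface of resting cells, was at 62.6 CPM against 0.74 CPM. The others were Rab7b, Ckb, H2-DMb1, Jaml, Fam105a, A530099J19Rik, P2ry14, Pianp and H2-DMa, between 38.6-fold higher for H2-DMa and 74.2-fold for Pianp.

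Genes shared by conventional dendritic cells were also present. Of the 9 listed, 9 were at least 2-fold higher than in all other barcodes, with a median of 13.7-fold. Over all genes compared the share was 17.2% and the median 0.85-fold. Flt3, the receptor for the growth factor of the lineage, was at 94.4 CPM against 2.73 CPM. Zbtb46, a transcription factor gene of conventional dendritic cells, was at 38.4 CPM against 4.24 CPM, and Itgax, which encodes CD11c, at 180 CPM against 6.34 CPM. Cst3, which encodes cystatin C, was at 36965 CPM against 2311 CPM. Of 12 transcription factor genes compared, 8 were at least 2-fold higher and none lower, against 17.2% and 26.3% of all genes compared. Spi1, the myeloid factor PU.1, was among the 8, at 439 CPM against 18.3 CPM.

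Class II processing genes stood further above all other barcodes than class I genes did. The rule required class II RNA and set no limit on class I, so this order follows in part from the choice of cells. Over all genes compared, 17.2% were at least 2-fold higher and the median was 0.85-fold. Of 8 listed class II processing genes outside the rule, 7 were at least 2-fold higher than in all other barcodes and none lower, with a median of 23.1-fold. Ciita, the master regulator of class II genes, was at 136 CPM against 2.87 CPM. H2-DMb1, part of the complex that loads peptide on class II, was at 582 CPM against 12.6 CPM, and Ctss, the protease that cuts the invariant chain, at 314 CPM against 23.3 CPM. Lgmn was the exception, at 55.5 CPM against 82.5 CPM. Of 12 class I genes, 7 were at least 2-fold higher, with a median of 2.26-fold. Tap1 and Tap2, the peptide transporter, were at 207 and 178 CPM against 22.9 and 24.4 CPM, whereas B2m was at 2341 CPM against 2797 CPM.

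Among receptors, costimulatory genes and cytokines, some were high and others at or near 0. A listed gene was compared only with at least 10 CPM in 1 set, so genes low in both sets are not counted. A gene that passed through the dendritic cells alone could only come out higher in them. Over all genes compared, 17.2% were at least 2-fold higher and 26.3% lower. Of 7 costimulatory genes, 6 could be compared and 6 were at least 2-fold higher than in all other barcodes. Cd86 was at 254 CPM against 13.8 CPM and Cd83 at 1006 CPM against 59.0 CPM. Among chemokine receptors, Cxcr3 was at 34.5 CPM against 0.45 CPM, while Cx3cr1 was at 1.05 CPM and Ccr6 at 0 UMIs, which allows up to 0.79 CPM at 3 counts. Of 13 listed pattern recognition genes in the table, 7 could be compared, of which 6 were at least 2-fold higher and 1 lower. Beside Tlr3 and Tlr11, Clec12a was at 166 CPM against 8.07 CPM, while Tlr4, Tlr7 and Tlr9 were at 1.05, 0.79 and 1.05 CPM. Of 10 cytokine genes, 5 could be compared and 5 were at least 2-fold higher, among them Il1b at 313 CPM against 13.5 CPM and Tgfb1 at 128 CPM against 22.8 CPM. Il10 and Il12a had 0 UMIs in the dendritic cells.

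Markers of macrophages and of T and NK cells were at or near 0, whereas some monocyte and endothelial genes were not. Of 13 macrophage genes, Vsig4, Marco, Cd163 and Folr2 had 0 UMIs, Clec4f and Cd5l were at 0.26 CPM, and the list summed to 17.6 CPM against 67.3 CPM in all other barcodes. The T and NK cell genes Klrb1c and Ncr1 had 0 UMIs, and Cd3e was at 1.58 CPM. Some genes on other lists were nevertheless found in most dendritic cells. Ighm, for an immunoglobulin heavy chain, was at 134 CPM in 67.8% of the cells, Lyz2, for lysozyme, at 431 CPM in 81.8%, and Plac8 at 477 CPM in 82.1%, against 33.4, 35.4 and 36.7 CPM in all other barcodes. The monocyte and neutrophil list summed to 978 CPM against 115 CPM, with 3 of 5 compared genes at least 2-fold higher, against 17.2% of all genes compared. Its genes Chil3 and Csf3r were at 0 and 1.05 CPM. The endothelial list summed to 610 CPM against 336 CPM, most of it Dnase1l3. Ly6d, listed for plasmacytoid cells, was at 130 CPM but at 1252 CPM in the hepatocyte set. Dnase1l3, listed for endothelium, was at 473 CPM in the dendritic cells and 697 CPM in mature dendritic cells, against 96.5 CPM in all other barcodes. Hepatocyte RNA was in every cell: Alb was detected in 100% of them, and the 8 listed hepatocyte genes gave a median of 0.299% of the UMIs of a cell, from 0.0975 to 10.9%, and over 1% in 52 of the 351 cells. The median was 0.318% in mature dendritic cells, 0.495% in macrophages and 9.96% in the hepatocyte set.

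The small type 2 group differed from type 1 in more than the 3 genes that split them. Of 7237 genes compared, 14.3% were at least 2-fold higher in type 1 and 24.3% at least 2-fold lower, 1037 and 1760 genes, or 1288 and 1310 when centred on the median of 0.84-fold. With 110982 UMIs in the 16 type 2 cells however, 1 UMI is close to the 10 CPM limit, and 3 counts stand for 27.0 CPM. All 15 type 1 list genes were at least 2-fold higher in type 1, with a median of 27.5-fold, and 9 of 13 type 2 list genes at least 2-fold lower, with none higher. A gene that reached 10 CPM in 1 type alone could only come out higher there, as with Sirpa, found in 0 type 1 cells. These counts are therefore description and do not test the split. Numbers of type 2 cells per mouse were below the 10 required for a test between types within mice, so none was run.

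Several type 1 genes had no UMI in the type 2 cells. Itgae was at 136 CPM in type 1, at least 5.02-fold higher than the level of 3 counts in type 2. Tlr3, at 70.0 CPM, was at least 2.59-fold higher. The interferon-inducible genes Ifi205 and Ifi211, at 160 and 85.9 CPM, and Adam8, a surface protease gene, at 171 CPM, also had 0 UMIs in type 2. Phf11a, A530099J19Rik and Anpep, at 80.7, 79.1 and 71.7 CPM, completed this group with Ccl17 and Cxcl2, whose UMIs came from few cells, 9.97% and 5.98% of all 351. These 10 genes depended on how the types were cut. Their log2 ratios of type 1 to type 2 ran from 6.15 to 7.43. They ran from 1.76 (Anpep) to 3.75 (Phf11a) when each cell went to the list with the larger share. That cut moved 4 type 1 cells to type 2, of 42668, 28207, 16713 and 5345 UMIs. The cell of 16713 UMIs was called for more than 1 tag. The 16 type 2 cells cut by the 3 genes summed to only 110982 UMIs. Itgae, Tlr3 and Ifi205 are also on the type 1 list that makes this cut. Batf3 was at 197 CPM in type 1 and 54.1 CPM in type 2, 3.64-fold higher (1.66 to 9.94). Naaa was found in 308 of 325 type 1 and 4 of 16 type 2 cells, and Irf8 in 324 of 325 and 3 of 16, with 23 of the 26 type 2 UMIs of Irf8 in 1 cell. Cst3 was in every cell of both types, at 38152 CPM in type 1 and 5289 CPM in type 2, 7.21-fold higher (6.65 to 7.84).

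The type 2 cells carried their own set. Sirpa, which encodes SIRPα, had 10 UMIs in 8 of 16 type 2 cells and none in 325 type 1 cells. Clec10a, a galactose-binding lectin gene of type 2 cells, was at 225 CPM in type 2 (8 of 16 cells) and 2.75 CPM in type 1. S100a4, a calcium-binding protein gene, was at 622 CPM (12 of 16 cells) against 1.65 CPM, and Cybb, for a subunit of the phagocyte oxidase, at 469 CPM (15 of 16) against 10.7 CPM, 43.8-fold higher (28.3 to 68.1). Il1r2, the decoy receptor for interleukin 1, was at 324 CPM (10 of 16) against 3.29 CPM. Mcemp1, Clec4b1, Cd7, Mgl2 and Mmp12 completed the 10 genes, found in 7, 7, 5, 3 and 4 of the 16 cells. Under the same list-based cut the log2 ratios of type 1 to type 2 ran from -5.64 (Cd7) to -3.43 (Mmp12), against -7.88 (S100a4) to -5.33 (Cybb) with the 3 genes. Some moved when a mouse was left out. Without hashtag 1, Mgl2 went from -5.37 to 0, Mmp12 from -6.77 to -4.08, Clec10a from -5.92 to -4.86, S100a4 from -7.88 to -8.63 and Cd7 from -5.44 to -6.55. Without hashtag 2, Cd7 was at -3.91, Mmp12 at -7.43 and S100a4 at -7.10, and Il1r2 went from -6.24 to -5.08. Zeb2, a transcription factor gene of type 2 cells, was at 135 CPM against 5.77 CPM, and Irf4 at 36.0 CPM, 4 UMIs, against 3.02 CPM.

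The type 2 group was not uniform. Il1b was at 2072 CPM in type 2 and 260 CPM in type 1, but 121 of its 230 UMIs were in 1 cell. Siglech and Cox6a2, genes of plasmacytoid dendritic cells, had 11 UMIs each, up to 9 and 11 of them in 1 cell, and UMIs of Siglech, Cox6a2, Ccr9 or Klk1 occurred in 2 of the 16 cells. Of 7 plasmacytoid list genes compared, 6 were at least 2-fold higher in type 2, against 24.3% of all genes compared. A gene at 10 CPM in type 2 alone could only come out higher there, and 1 UMI is close to that limit. Ly6c2, a monocyte gene, had 17 of its 20 type 2 UMIs in 1 cell, and the monocyte and neutrophil list summed to 2397 CPM in type 2 and 930 CPM in type 1. Plac8 was more even, in 14 of 16 type 2 cells at 1604 CPM and in 268 of 325 type 1 cells at 433 CPM.

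Several other genes had similar levels in both types. H2-Ab1 was at 12239 CPM in type 1 and 11515 CPM in type 2, Ciita at 136 and 135 CPM, and Spi1 at 438 and 451 CPM. Of 8 class II processing genes, 3 were at least 2-fold lower in type 1 and none higher, against 24.3% and 14.3% of all genes compared. Their median was 0.72-fold, against 0.84-fold over all genes compared. Ctss was at 301 and 649 CPM, Lgmn at 51.3 and 162 CPM and H2-DMb2 at 62.0 and 225 CPM. Some genes listed for type 2 cells were expressed by type 1 cells at similar levels. Klf4 was at 141 and 216 CPM, Ccr2 at 146 and 117 CPM, Clec12a at 165 and 180 CPM, and Notch2 at 39.5 and 45.1 CPM, and the Poisson intervals of each pair overlapped. Clec4a4 had 0 UMIs in either. Of the class I genes, 4 of 12 were at least 2-fold higher in type 1 and none lower, against 14.3% and 24.3% of all genes compared. Among the 4 were Tap2 at 184 CPM against 45.1 CPM, 4.08-fold (1.74 to 12.6), and Psmb9 at 885 CPM against 414 CPM.

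Cell by cell, the 2 lists separated the types almost completely. Type 1 list genes gave a median of 4887 CPM in type 1 cells and 444 in type 2 cells, and type 2 list genes 568 and 1619. The sum of the type 2 list was not particular to dendritic cells, however. It was 1730 CPM in type 2 cells, 2267 CPM in the hepatocyte set and 1935 CPM in all other barcodes. Assigning each cell to the list with the larger share kept 321 of 325 type 1 cells and 14 of 16 type 2 cells, and placed all 8 cells with neither Cd209a nor Xcr1 or Clec9a on the type 1 side. Those 8 cells had a median of 2613 UMIs, against 10515 in type 1.

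**Figure D2:**
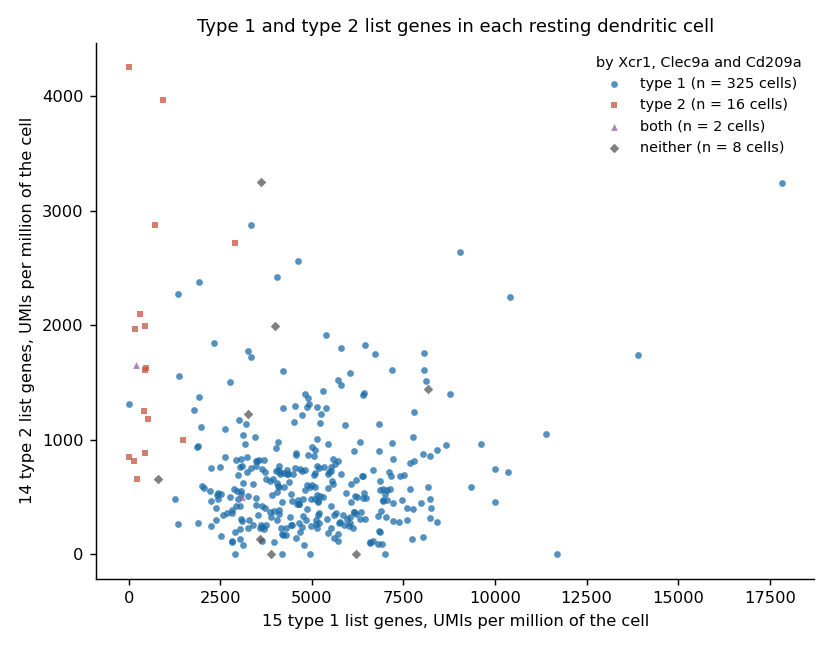
Each of the 351 resting dendritic cells by its CPM from 15 type 1 list genes (horizontal axis) and 14 type 2 list genes (vertical axis), coloured by Xcr1, Clec9a and Cd209a. The type 1 cells form 1 cloud around a median of 4887 on the horizontal axis, while the 16 type 2 cells lie at a median of 444 and extend up to 4255 on the vertical axis.

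Within the population some genes were even and others were carried by few cells. The 35 deepest cells held 20.4% of all UMIs, and for each gene the 35 cells with most UMIs of it are set against that share. They held 20.6% of the Plbd1 UMIs, 18.6% of Cst3 and 27.6% of Xcr1. They held 84.5% of the UMIs of Cxcl9 and 92.2% of those of Cxcl10, chemokines that attract CXCR3-bearing T cells and that were found in 43.3% and 17.7% of the cells. For the chemokine gene Ccl4 and for Il1b the shares were 70.1% and 58.7%, at 685 and 313 CPM. A gene with few UMIs gives a high share by counting alone. At about the same level, however, Cd207, which encodes langerin, had 91.3% of its UMIs in 35 cells at 39.5 CPM, and Zbtb46 48.6% at 38.4 CPM. Cd207 was found in 13.7% of the cells and Cd8a in 19.7%.

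A small share of the cells expressed proliferation genes. Of 7 cycling genes, Mki67, Top2a, Cdk1, Birc5, Ccnb2, Pclaf and Rrm2, 4 or more were detected in 23 of the 351 cells (6.55%, 4.20 to 9.67%), 1 to 3 in 39 and none in 289. The 23 cells were deeper, with a median of 16713 UMIs against 9987. With every cell thinned to 2000 UMIs, which left out 10 resting, 10 mature and 331 hepatocyte-set cells of lower depth, 2 or more of the genes were found in 6.16% (3.85 to 9.26%) of the resting cells, 1.70% (0.738 to 3.33%) of mature dendritic cells and 1.56% (1.11 to 2.13%) of the hepatocyte set. The thinned shares were 6.82% in hashtag 1 and 4.95% in hashtag 2, with overlapping intervals of 3.16 to 12.5% and 2.28 to 9.18%, and 1 of 7 cells in hashtag 3. Genes that did not choose them moved with the 23 cells, as Hmgb2 was at 3100 CPM against 304 CPM and Stmn1, which controls microtubules, at 977 CPM against 27.6 CPM in the 289. Dendritic cell genes were unequal in these cells, with the types not separated. Xcr1 was at 271 against 369 CPM, 0.733-fold (0.591 to 0.900), Irf8 at 1335 against 1537 CPM, 0.869-fold (0.790 to 0.954), and Cst3 at 27469 against 39065 CPM. The ratio intervals of Clec9a (319 against 347 CPM), Batf3 (230 against 188 CPM) and Naaa (764 against 795 CPM) included 1. Of the 23, 19 were of type 1 and 2 of type 2, and what the mix of types did to these values was not tested.

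Against the 480 mature dendritic cells, set apart by 2 or more of the 5 maturation genes, the resting cells had higher levels of type 1 list genes and lower levels of costimulatory genes. Of 6589 genes compared, 9.36% were at least 2-fold higher in the resting cells and 6.33% at least 2-fold lower. The mature cells had a median of 9759 UMIs, close to that of the resting cells. Because the maturation genes split the sets, genes that move with them are described here and not tested. The need for at least 2 of the 6 markers, which include Xcr1 and Clec9a, applied to the resting cells only. Higher levels of these markers, and of genes that go with them, follow in part from that choice. Of the 15 type 1 list genes, 8 were at least 2-fold higher in the resting cells and none lower, with a median of 2.34-fold against 1.18-fold over all genes compared. Xcr1 was at 353 CPM against 112 CPM and Clec9a at 328 CPM against 137 CPM, whereas Batf3 was at 193 CPM against 163 CPM.

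Genes highest in the resting state were led by March1, at 62.6 CPM against 6.91 CPM, 9.06-fold higher (6.33 to 13.3). Tlr3 was at 67.6 CPM against 9.08 CPM, Ccr2 at 145 CPM against 20.9 CPM and Unc119, which carries lipidated signalling proteins, at 136 CPM against 18.6 CPM. Sla, Fcrla, Tifab, Zfp36l2, Mycl and Rnase6 made up the rest of the 10, between 5.21-fold for Rnase6 and 6.59-fold for Fcrla. Ciita was at 136 CPM against 50.4 CPM and H2-DMb1 at 582 CPM against 232 CPM, while the class II genes of the rule were close, with H2-Aa at 9794 CPM against 10140 CPM. Of the 10 listed cell cycle genes, 9 were at least 2-fold higher in the resting cells, against 9.36% of all genes compared. Of the 10 immediate early genes, which respond to tissue dissociation among other stimuli, 5 were higher, led by Fos at 875 CPM against 181 CPM.

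Costimulatory genes and some chemokines were lower in the resting cells. Nudt17, Tnfrsf4, which encodes OX40, and Lad1 had 0 UMIs in the resting cells and were at 155, 121 and 99.9 CPM in the mature cells, at least 197-fold, 154-fold and 127-fold above the level of 3 counts. Cacnb3 was at 0.26 CPM against 131 CPM. Ccl5, a chemokine for T cells, was at 15.3 CPM against 819 CPM, 53.7-fold lower (41.5 to 70.8), and Glipr2, Zmynd15, Mreg, H2-M2 and Tspan3 completed the 10. Of 7 costimulatory genes, 5 were at least 2-fold lower and none higher, against 6.33% and 9.36% of all genes compared. Cd40 was at 42.1 CPM against 196 CPM and Cd274, which encodes PD-L1, at 27.4 CPM against 172 CPM. Cd86, at 254 against 286 CPM, and Cd83, at 1006 against 1196 CPM, differed little. Relb, the NF-κB subunit of the maturation programme, was at 40.2 CPM against 281 CPM, and Ccl17 at 73.4 CPM against 711 CPM. Of 13 chemokine and receptor genes compared, 3 were at least 2-fold lower and 2 higher, among them Cxcr3 at 34.5 CPM against 2.96 CPM.

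**Figure D3:**
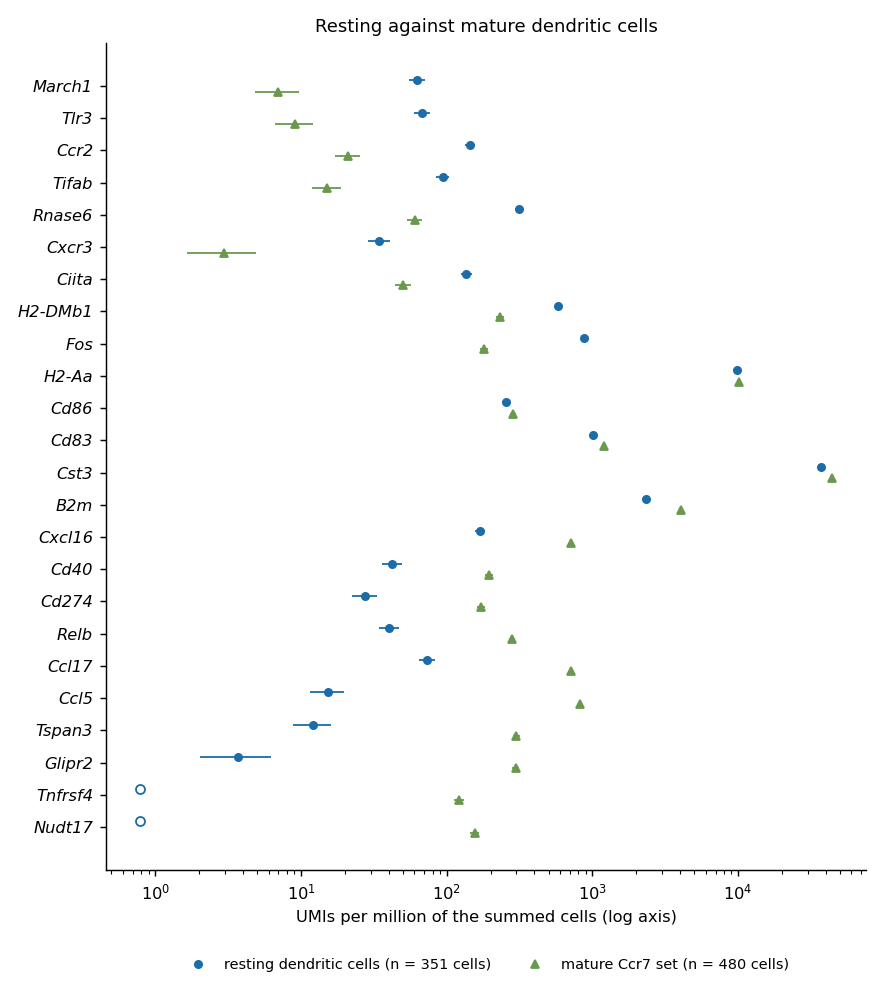
Levels of 24 genes (CPM, log axis) in 351 resting and 480 mature dendritic cells, with exact 95% Poisson intervals. Open symbols mark 0 UMIs, drawn at the level of 3 counts. March1 to Fos are higher in the resting cells, H2-Aa to Cst3 are close, B2m is at 2341 and 4050 CPM, and genes from Cxcl16 (4.23-fold) down are lower in the resting cells.

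The 3 mice contributed unequally. Resting dendritic cells were 136 of 820 barcodes called for hashtag 1 (16.6%, 14.1 to 19.3%), 184 of 1974 for hashtag 2 (9.32%, 8.07 to 10.7%) and 8 of 968 for hashtag 3 (0.826%, 0.357 to 1.62%). The order of hashtags 1 and 2 rests on how the other barcodes are called. With a fixed rule of at least 10 tag UMIs, 80% of them from 1 tag, the shares were 7.43% (6.31 to 8.67%), 18.2% (15.9 to 20.7%) and 1.38% (0.598 to 2.70%). The dendritic cells themselves were called the same way by both methods in 136, 184 and 8 cases, but the barcodes called for the 3 tags went from 820, 1974 and 968 to 1979, 1035 and 579. Barcodes called negative held a median of 12 UMIs of hashtag 1 and 3 each of hashtags 2 and 3. The low share of hashtag 3 was found with both callers.

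Among dendritic cells alone the mice were closer. Resting cells were 136 of 314 resting and mature cells of hashtag 1 (43.3%, 37.8 to 49.0%), 184 of 463 of hashtag 2 (39.7%, 35.3 to 44.4%) and 8 of 14 of hashtag 3 (57.1%, 28.9 to 82.3%), and the 3 intervals overlapped. The median depth of the resting cells was 10846, 9924 and 8851 UMIs.

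**Figure D4:**
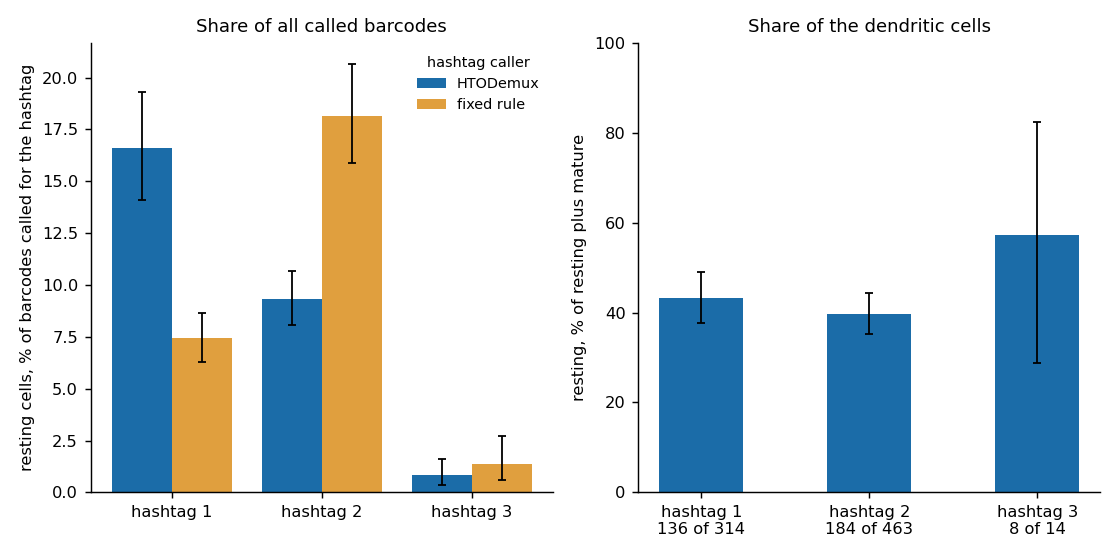
Left, resting dendritic cells as a percentage of all barcodes called for each hashtag, by HTODemux and by a fixed rule. Right, resting cells as a percentage of resting plus mature dendritic cells. Bars are shares and lines exact 95% binomial intervals. Hashtags 1 and 2 change places between the callers (16.6 and 9.32% against 7.43 and 18.2%), hashtag 3 is at 0.826 and 1.38%, and the shares on the right are 43.3, 39.7 and 57.1%.

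Levels were compared between hashtags 1 and 2, a contrast of control with G12V in the deposited pairing and of 2 G12V mice in the other, so no direction for the construct is drawn. Of 6725 genes, 8.09% were at least 2-fold higher in hashtag 1 and 0.892% at least 2-fold higher in hashtag 2, and the median gene was 1.08-fold higher in hashtag 1. None of the 15 type 1, 9 shared dendritic, 8 class II or 12 class I genes was 2-fold apart in either direction. Hepatocyte RNA moved with the contrast. The hepatocyte list summed to 10458 CPM in hashtag 1 and 6311 CPM in hashtag 2, with medians per cell of 0.326% and 0.278%, and leaving out cells over 1% left 111 and 168 cells, in which 5.69% and 1.23% of 6591 genes were 2-fold apart. Of the 10 leading genes of hashtag 1, 9 were higher still in all other barcodes. Among them was Gstm1, a glutathione transferase gene, at 1490 CPM against 283 CPM, and 597 and 177 CPM without the hepatocyte-rich cells. Sult2a2, Hgd, Ugt2b36, Asgr1, Iigp1, Akr1c6 and Hspb1 were also in this group, and the exception was Apol7c, of whose hashtag 1 UMIs 69.5% were in 1 cell.

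Some immune genes were apart as well. The interferon response list summed to 766 CPM (723 to 811) in hashtag 1 and 519 CPM (486 to 552) in hashtag 2, and to 818 and 541 CPM without the hepatocyte-rich cells, with 3 of 10 compared genes at least 2-fold higher and none lower. Its medians per cell were 416 and 329 CPM. Isg15, a ubiquitin-like interferon-induced gene, was at 198 CPM (177 to 222) against 75.6 CPM (63.7 to 89.2), and 33.8% of its hashtag 1 UMIs were in 1 cell. The heat-shock gene Hspa1a was at 2209 CPM against 1184 CPM, and Cxcl9 at 806 CPM against 484 CPM. In the other direction, Cd80 was at 24.5 CPM against 51.0 CPM, 2.08-fold higher in hashtag 2 (1.42 to 3.12), and Map3k14, which encodes the NF-κB-inducing kinase NIK, at 24.5 CPM against 62.2 CPM. Egr3 was at 53.5 CPM against 97.6 CPM. Gm26532, Rab20, Dennd4a, Ikzf1, Hic1 and Tubb6 were also among the 10 leading genes of hashtag 2, and Cxcl2 led them with 63.3% of its UMIs in 1 cell.

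The mVenus transcript for which the cells had been sorted was at 7.63 CPM (5.11 to 11.0) in the resting dendritic cells, from 29 UMIs in 13 cells. It was at 38.6 CPM (37.2 to 40.1) in the hepatocyte set and 60.8 CPM in all other barcodes. Mature dendritic cells were at 8.69 CPM (6.31 to 11.7), macrophages at 29.8 CPM, with all 8 UMIs in 1 cell, and 72 B cells had 0 UMIs, which allows up to 10.6 CPM at 3 counts. An mVenus UMI was found in 3.70% of the resting cells (1.99 to 6.25%, median 10245 UMIs) and in 2.29% of the mature cells (median 9759 UMIs). By hashtag the levels were 3.22 CPM (1.05 to 7.52), 10.7 CPM (6.55 to 16.6) and 0, from 5, 20 and 0 UMIs. Without the 52 cells that had over 1% hepatocyte RNA the level was 2.61 CPM (1.13 to 5.14). Set against Alb, there were 2.94 mVenus UMIs per 1000 Alb UMIs in the resting cells (1.97 to 4.23), 2.44 (2.39 to 2.50) in all other barcodes and 1.00 (0.96 to 1.04) in the hepatocyte set, which was chosen for its hepatocyte RNA. In the other barcodes outside that set there were 16.1 (15.6 to 16.6), and in the resting cells of hashtags 1 and 2 there were 1.06 (0.34 to 2.48) and 5.21 (3.18 to 8.06). The Nras row was at 81.3 CPM in the resting cells, 254 CPM in mature dendritic cells and 548 CPM in the hepatocyte set.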

How the data were processed

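Gene expression and hashtag libraries were made from a single pool with the 10x 3′ v3 kit on 2 lanes. The authors deposited UMI counts per gene and barcode, aligned to mm10 with Cell Ranger (2.1.1 per the submitters' processing notes, 3.0.2 per the file header), and UMI counts per hashtag from CITE-seq-Count, whose version is not given in the sources used here. Both are raw counts. The gene table held 31053 gene rows beside mVenus and 6 hashtag rows. The members and gene lists were chosen with earlier results of these data known.

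Hashtags were called with HTODemux (Seurat 5.3.0, R 4.3.3, positive quantile 0.99), and other steps used Python 3.11.15 and scipy 1.17.1. UMIs were summed over cells and given as CPM, with mVenus, Nras and hashtag rows left out of the total. Sets were compared on log2(CPM + 1) over genes with at least 10 CPM in 1 set, outside the 20 genes of the rule. The comparison was tested on simulated counts. Intervals on levels are exact Poisson, on ratios exact conditional and on shares Clopper-Pearson, all at 95%. Mature cells had a class II share of at least 1% and at least 2 maturation genes, macrophages over 2 C1q UMIs and 2 macrophage markers, B cells at least 2 Cd79 UMIs and a further B cell marker, and hepatocytes at least 5% of UMIs from the hepatocyte list, and a barcode in 2 sets was in neither. The hepatocyte set therefore lacks hepatocytes with low levels of those 8 genes. Doublets were not removed, whether within or between mice. The 20 resting cells called for more than 1 tag stayed in the set, all of them as type 1 cells. They had medians of 13656 UMIs and 0.596% hepatocyte list UMIs, against 10188 and 0.299% in cells called for 1 tag. Values by hashtag do not include them. Named genes were those of the rule and lists, the 15 with the highest ratio to other barcodes at 50 CPM or more in 20% of members, and the 10 with the largest ratio each way among genes at 50 CPM or more whose Poisson intervals did not overlap. The use of this last rule for resting against mature cells and for hashtag 1 against 2, and of shares held by 35 cells, was chosen after the data were seen. A few genes that these rules name are not reported here. Gene positions are from GENCODE vM21 (GRCm38). Sums of UMIs per set, with the level that 3 counts stand for, ran from 110982 (27.0 CPM, type 2) and 62407 (48.1 CPM, hashtag 3) to 3802699 (0.79 CPM, all resting cells).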

Additional observations from a re-analysis of the deposited data

Results flagged for a closer look

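Of the 6 hashtag rows in the gene table, 3 belong to tags that the study does not assign to a mouse of this library. The resting dendritic cells held 12 UMIs of hashtag 4 and 10 UMIs of hashtag 5, more than the 3 that a count of 0 allows, and 0 of hashtag 6. The other barcodes held 1399, 74 and 3. These rows enter no comparison, which is why they are given here, and their UMIs are few beside the 419119, 42096 and 6258 UMIs of hashtags 1 to 3 in the same cells. In the gene table, hashtags 1, 2 and 3 had a UMI in 350, 319 and 318 of the resting cells. The calls by mouse used the separate hashtag library instead. Why hashtag 1 outnumbers hashtag 2 in the gene table was not tested.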

How the results depend on the processing

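No paired analysis was possible because the comparison of the types rests on no test: the 3 mice had 6, 8 and 2 type 2 cells, also with the fixed tag rule, under the minimum of 10 in at least 2 mice set for it. Sums over so few cells could have been fitted but were not, nor were the alternatives of that test, including DESeq2. The number of resting cells stayed between 243 (no maturation gene allowed) and 346 (no C1q UMI). Of type 1 cells there were 225 to 332 under the other definitions, and 153 to 320 when a mouse was left out. Of type 2 cells there were 12 to 19, and 8 to 14 when a mouse was left out. The fixed tag rule moved the shares to 7.43% for hashtag 1 and 18.2% for hashtag 2. Leaving out hepatocyte-rich cells moved mVenus to 2.61 CPM, and leaving out a mouse gave 4.64 CPM (without hashtag 2) to 10.7 CPM (without hashtag 1). Centring, the limit of 50 CPM, and leaving out a mouse or, for gene counts, cycling or hepatocyte-rich cells were chosen after the data were seen. With a limit of 50 CPM the counts were 564 higher and 826 lower than in other barcodes (1315 and 2009 as reported), 232 and 556 for type 1 against type 2 (1037 and 1760), and 152 and 8 for hashtag 1 against 2 (544 and 60). Centring on the median gave 92 genes lower in hashtag 1. Types taken from the lists gave 681 genes higher in type 1. Leaving out a mouse here removed its resting cells only, and the other barcodes stayed as they were. It gave 1314 to 1348 genes higher and 1593 to 2190 lower than in other barcodes. For type 1 against type 2 it gave 1163 to 1594 higher and 2381 to 2577 lower in type 1, both highest without hashtag 1. Of the single-gene values recomputed, 526 stayed, 41 moved and 1 turned. The log2 ratio of Mgl2 to other barcodes ran from -0.21 without the resting cells of hashtag 1 to 2.29 without those of hashtag 2. The depth limits the type 2 cells and hashtag 3 most.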
